A study of Mus musculus with 16 samples.

Results

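The genes described here encode the proteins of the cytosolic ribosome. Members were the genes whose name in the scanner files starts with Rpl or Rps and a digit, together with Rplp0 to Rplp2 and Rpsa and without the Rps6k kinases, which gave 82 of the 18283 genes tested. They comprised 31 genes of the small subunit, 42 of the large subunit and 3 of the stalk, which are called the 76 canonical genes below, 5 paralogs (Rpl3l, Rpl7l1, Rpl22l1, Rpl36al and Rps27l) and Rps19bp1, whose product binds Rps19. The paralog Rpl39l was added through its RefSeq accession, because the files list it under a clone name, 4930517K11Rik. Rpl34 (in the files 1100001I22Rik) and probes named Arbp, an older name of Rplp0, fell outside the name rule and were read separately. The 82 members had 137 probes, and the probe with the highest mean signal stood for its gene.

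A ribosome is made of a small subunit, which decodes the mRNA, and a large subunit, which joins the amino acids and leads the new chain out through an exit tunnel. Each subunit holds ribosomal RNA and a set of proteins that are made in near equal amounts, and their genes are among the most strongly transcribed in dividing cells such as embryonic stem cells. A few have paralogs that some tissues favour. Rpl39 lines the exit tunnel, and its paralog Rpl39l is known mainly from male germ cells, while Rpl3l is the striated muscle counterpart of Rpl3.

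The cells were E14, a line of mouse embryonic stem cells grown with leukemia inhibitory factor (named leukocyte inhibitory factor in the labels), and all carried a stable lentiviral hairpin RNA, either a control (sh-Control) or one against Sirt1 (sh-SIRT1), which encodes an NAD-dependent deacetylase. For 2 days the medium contained either the vehicle, ethanol, or retinoic acid (RA) at 20 nM, a signal made from vitamin A under which stem cells leave the pluripotent state. There were 3 sh-Control and 3 sh-SIRT1 arrays in vehicle, and 4 sh-Control and 6 sh-SIRT1 arrays under RA. The design text speaks of 3 pairs of cells with duplicates without saying which arrays are duplicates, so p-values measure the spread between arrays, which may be technical. Each hairpin was described as a single stable line, so the hairpin and the history of the line cannot be told apart.

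Levels are log2 of the processed intensity minus the log2 of the 75th percentile of the same array, and a level is compared between arrays for the same probe only. The share of probes well above background was 60.3 to 68.6% over the arrays. Sirt1 itself lay at 3.53 to 3.85 in sh-Control and 1.83 to 1.89 in sh-SIRT1 in vehicle, and at 3.28 to 3.48 and 0.92 to 1.59 under RA. The sh-Control RA arrays 2 to 4 lacked the Y-linked Ddx3y (levels of -6.91 to -8.12, against 0.23 on sh-Control RA array 1 and 0.33 or more on every other array), so for these arrays a difference in the cells cannot be told apart from RA or, under RA, from the hairpin. All 10 embryonic stem cell markers that could be tested were well above background on every array. Of 19 fibroblast markers, which would mark feeder cells, 15 were tested and 10 to 15 of them were well above background per array. Their summed linear level was 44.3 to 71.8 and 41.7 to 62.5 in the sh-Control and sh-SIRT1 vehicle groups, and 35.0 to 62.8 and 49.1 to 71.8 under RA. These sums mostly reflect Vim and Acta2, which had the highest levels of the 15 and were not called under RA. Of the 15, 8 in sh-Control and 11 in sh-SIRT1 were called higher under RA and 0 lower. Over all genes 19.7% and 23.0% were called higher. The median log2 differences of the 15 were 1.59 and 1.94. The part of such cells in the RA results was not tested. In bulk RNA, fewer cells of a type and less RNA per cell cannot be told apart.

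All 82 members and Rpl39l were well above background on all 16 arrays, so none entered through only the group where it was high. Rps18 was saturated on sh-Control RA array 1.

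Rpl39l and Rpl39 encode near-identical small proteins, so the probes that read Rpl39l are shown first, as the first 30 of their 60 bases, 5′ to 3′.
Rpl39l, first probe: ctgtgctttagtgagttcattcagcagttc
Rpl39l, second probe: tcatctgcataatagacaagtattctatca
In mouse build mm7 the files place the Rpl39l probes at chr16:9846568-9846627 and chr16:9846676-9846735; the exon or untranslated region they lie in was not analysed here. The longest run of bases that either Rpl39l probe shares with the Rpl39 probe, on either strand, is 7 bases. The 2 Rpl39l probes share a run of 6 bases with each other. Only the probes were compared and not the whole Rpl39 mRNA, so binding of Rpl39 mRNA to the Rpl39l probes was not tested.

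The 250 bases before the start of each gene are shown next, because the pair moved in different comparisons, Rpl39l between the hairpins and Rpl39 under RA. They come from RefSeq on GRCm38.p6, Rpl39l from chr16:10169978-10170227 (plus strand) and Rpl39 from chrX:37085223-37085472 (minus strand). Capitals mark CCGGAAG, or CTTCCGG on the other strand, the core bound by ETS factors.
Rpl39l: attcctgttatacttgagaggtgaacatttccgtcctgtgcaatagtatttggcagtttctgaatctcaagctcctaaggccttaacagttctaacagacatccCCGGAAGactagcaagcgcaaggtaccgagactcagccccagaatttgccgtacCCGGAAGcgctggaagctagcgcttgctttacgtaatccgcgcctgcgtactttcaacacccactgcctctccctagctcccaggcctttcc
Rpl39: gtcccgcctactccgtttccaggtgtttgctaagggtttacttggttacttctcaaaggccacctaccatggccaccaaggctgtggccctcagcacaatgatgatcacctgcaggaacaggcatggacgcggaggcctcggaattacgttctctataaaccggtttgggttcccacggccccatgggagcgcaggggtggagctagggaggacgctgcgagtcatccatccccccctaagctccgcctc
The Rpl39l stretch holds the motif 2 times, and the Rpl39 stretch does not hold it, although its first 50 transcribed bases do, 1 time. The RefSeq table held a promoter for 56 of the 76 canonical genes. Over 300 bases, from 250 before to 50 after the start, 23 of these 56 (41.1%) held the motif on either strand, against 9.12% of 27025 promoters in the table. A match describes the letters and not a bound factor.

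Rpl39l was low in sh-SIRT1 cells with and without RA. In vehicle it lay at 3.92, 4.39 and 4.38 on the sh-Control arrays and at -0.23, 2.08 and 2.02 on the sh-SIRT1 arrays. Under RA it lay at 4.33, 4.84, 4.37 and 4.35 in sh-Control and between 1.08 and 2.42, with a median of 1.68, in sh-SIRT1. The groups did not overlap: the highest sh-SIRT1 array was below the lowest sh-Control array. The log2 difference was -2.94 ± 0.50 (SE) in vehicle, 7.67-fold lower (limma adjusted p = 0.00312), and -2.73 ± 0.40 under RA, 6.65-fold lower (limma adjusted p = 4.76e-04). The lowest value, on sh-SIRT1 vehicle array 1, stood apart from the other 2 arrays of its group, and without it the vehicle difference was -2.18.

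The second Rpl39l probe gave the same picture. It lay at -0.49, -0.24 and -0.25 in sh-Control vehicle and at -4.77, -2.34 and -2.47 in sh-SIRT1 vehicle. Its log2 differences between the hairpins were -2.87 in vehicle and -2.67 under RA. Across the other array scalings, filters, blocks and left-out arrays, 26 alternatives in all, the adjusted p of the first probe ranged from 0.00192 to 0.0168 in vehicle and from 2.85e-05 to 0.0495 under RA. The high end under RA came from a fit that kept sh-Control RA array 1 alone, which has Ddx3y signal. Within slides that held both hairpins, the difference was -1.83 and -2.37 in vehicle, and -3.28, -2.98 and -2.50 under RA.

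**Figure D1:**
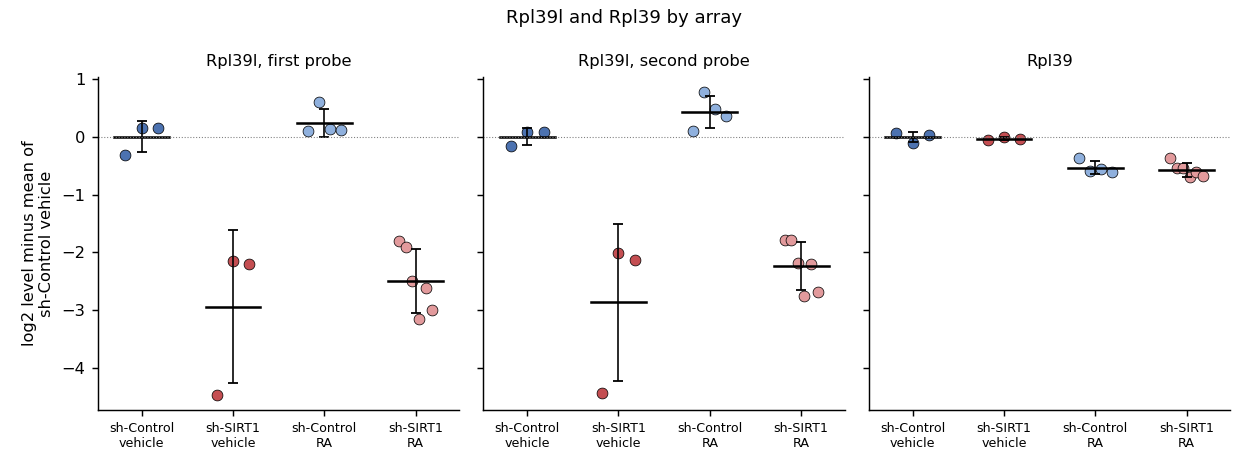
Log2 level of the 2 Rpl39l probes and the Rpl39 probe on each of the 16 arrays, minus the mean of the 3 sh-Control vehicle arrays of the same probe. Points are arrays, lines are group means and bars are SD; both Rpl39l probes lie lower on every sh-SIRT1 array than on every sh-Control array, and Rpl39 does not separate the hairpins.

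RA did not shift Rpl39l past the threshold. The log2 difference of RA against vehicle was 0.24 ± 0.47 in sh-Control (limma adjusted p = 0.695) and 0.45 ± 0.44 in sh-SIRT1 (limma adjusted p = 0.399). The second value rests on sh-SIRT1 vehicle array 1 and was -0.32 without it. Within slides it was -1.0, 1.85 and 0.01. The difference between these RA responses was 0.21 ± 0.64 (limma adjusted p = 0.894), and -0.56 without the same array.

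The canonical partner moved in the other comparison. Rpl39 lay at 7.33, 7.16 and 7.29 in sh-Control vehicle and at 7.21, 7.25 and 7.23 in sh-SIRT1 vehicle, with overlapping ranges. Its hairpin differences were -0.03 ± 0.10 in vehicle and -0.04 ± 0.08 under RA (limma adjusted p = 0.885 and 0.792). Under RA it lay at 6.89, 6.66, 6.70 and 6.64 in sh-Control and between 6.56 and 6.90 in sh-SIRT1, below every vehicle array. It fell by 0.53 ± 0.09 in sh-Control and by 0.54 ± 0.09 in sh-SIRT1 (limma adjusted p = 3.64e-04 and 1.01e-04). How far this holds under another scaling is given below with the other canonical genes.

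Among the 82 members and Rpl39l, the log2 difference of Rpl39l was the lowest of 83 in both hairpin comparisons. The next lowest were Rpl21 in vehicle, with -0.51, which did not pass the test, and Rps9 under RA, with -0.34. Over the 16 arrays the genes most like Rpl39l, among 12036 genes tested that carry a symbol and have a value on every array, were Ccdc189 (Pearson r of 0.937), Fkbp6 (0.925), Sdr42e1 (0.922), Ceacam20 (0.919) and Smc1b (0.919). Over the 6 vehicle arrays they were Slco4a1 (0.999), Gtsf1l, Tmprss5, Bmf and Spock2 (each 0.998), where sh-SIRT1 vehicle array 1 carries much of the variation. The r of the canonical genes with Rpl39l over the 16 arrays ran from -0.446 to 0.413, the highest being that of Rps18. Over the 6 vehicle arrays it ran from -0.996 (Rpl14) to 0.666 (Rpl23a). These are descriptions over arrays that share the same groups.

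The canonical genes as a body did not follow Rpl39l. In vehicle, 1 of the 76 was called higher in sh-SIRT1 (limma, Benjamini-Hochberg adjusted p under 0.05 over all genes tested) and 0 lower, where 8.62% of all genes were called, 4.41% higher and 4.21% lower, and 7 had an unadjusted p under 0.05. Their median log2 difference was -0.07, against -0.01 over all genes. The called gene was Rpsa, a small subunit protein also known as the laminin receptor precursor. It lay at 6.00, 6.12 and 6.05 in sh-Control and at 6.36, 6.35 and 6.25 in sh-SIRT1, without overlap, a difference of 0.26 ± 0.07 (limma adjusted p = 0.0345). This call was lost in 14 of 26 alternatives, where the adjusted p reached 0.306. With quantile normalization Rpsa was not called, at 0.23 ± 0.08 (adjusted p = 0.105 in that limma fit). With the replicate number as a block within each treatment, 5 canonical genes were called in vehicle, 2 higher and 3 lower, where 19.2% of all genes were called, and Rpsa kept its call (limma adjusted p = 0.0373). With the number as a block across all 4 groups 0 were called, where 1378 of the 18283 genes were, and Rpsa had 0.0845 (limma adjusted p).

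Under RA, 0 of the 76 canonical genes were called higher in sh-SIRT1 and 9 lower, where 20.3% of all genes were called, 8.59% higher and 11.7% lower. The 9 of 76 make 11.8%, close to the share over all genes. The median of the 76 was -0.14, against -0.04 over all genes, and 73 were below 0. They included Rps9, Rps26 and Rpsa of the small subunit and Rpl4, Rpl18, Rpl22, Rpl29 and Rpl37 of the large subunit.

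Rps9, which lies near the entry of the mRNA channel, had the largest of these differences. It lay at 6.39, 6.49, 6.43 and 6.38 in sh-Control RA and between 5.92 and 6.21 in sh-SIRT1 RA, without overlap, and was lower by 0.34 on the log2 scale (SE 0.07, limma adjusted p = 0.00350). Rpl29, a large subunit protein known also as a heparin-binding protein, had a difference of -0.31 ± 0.07 (limma adjusted p = 0.0110). Rpl18, another large subunit protein, had -0.30 ± 0.06 (0.00379), and Rpl4, whose extension reaches the exit tunnel, -0.29 ± 0.07 (0.00696). With sh-Control RA array 1 alone in its group, the canonical median was -0.27, against -0.06 over all genes. Without sh-SIRT1 RA array 1, whose canonical median was the highest of its group, 20 canonical genes were called, all lower. Over all genes 12% were called lower in that fit. With the number as a block across all 4 groups there were 6 calls, all lower, where 8.40% of all genes were called lower. With quantile normalization the median was -0.03, and 6 canonical genes were called lower, among them Rps9, Rpsa, Rpl4, Rpl18 and Rpl29, and 1 higher.

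**Figure D2:**
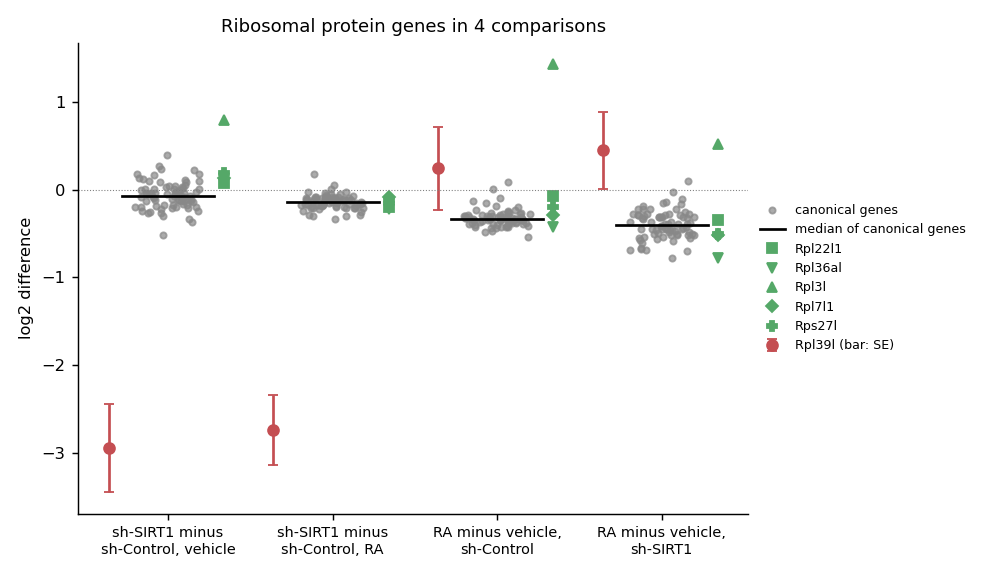
Log2 differences of the 76 canonical genes (grey, with their median as a line), the 5 other paralogs (green) and Rpl39l (red, with SE) in 4 comparisons, each value taken from the fit over all 16 arrays. Rpl39l lies near -2.94 and -2.73 in the hairpin comparisons, where the canonical genes lie between -0.51 and 0.39, and the canonical medians under RA, -0.33 and -0.40, hold for scaling to the 75th percentile only.

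RA against vehicle gave a lower level for most canonical genes on this scale. In sh-Control, 61 of the 76 were called lower and 0 higher, where 46.8% of all genes were called, 27.2% lower and 19.7% higher. Their median was -0.33, against -0.14 over all genes. In sh-SIRT1, 64 were called lower and 0 higher, where 58.2% of all genes were called, 35.3% lower and 23.0% higher, with a median of -0.40 against -0.13. The subunits gave like counts. Of the 31 small subunit genes 23 and 26 were called lower, with medians of -0.33 and -0.38, and of the 45 large subunit and stalk genes 38 and 38, with medians of -0.34 and -0.45. On single arrays the median of the canonical genes, relative to the sh-Control vehicle mean, was -0.07 to 0.09 in sh-Control vehicle, -0.15 to 0.03 in sh-SIRT1 vehicle, -0.40 to -0.21 in sh-Control RA and -0.65 to -0.28 in sh-SIRT1 RA.

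This shift depends on how arrays are scaled. With quantile normalization, which gives every array the same distribution of values, the medians were 0.00 in sh-Control and -0.04 in sh-SIRT1. The calls shrank to 3 (2 higher, 1 lower) and 11 (2 higher, 9 lower). Of all 18283 genes, 7974 and 9938 were called with that scaling, and 23.3% and 30.9% were called lower. With normexp background correction and quantile normalization there were 5 calls (3 higher, 2 lower) and 15 (4 higher, 11 lower). Over all genes 23.2% and 31.1% were called lower there. Scaling to the array median gave 72 and 75 calls, all lower, where 37.6% and 51.0% of all genes were called lower. The canonical medians were then -0.49 and -0.69 against -0.29 and -0.42 over all genes. The median processed intensity of all spots was 46.0 to 63.1 on the vehicle arrays and 64.6 to 91.4 on the RA arrays, so the distributions that the scalings align differed between vehicle and RA.

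Other genes of the same brightness gave similar values. The 112 genes outside the family whose mean level lay in the middle range of the canonical genes (6.89 to 8.29) had medians of -0.35 and -0.42, and 77.7% and 83.9% of them were called lower, against 80.3% and 84.2% of the canonical genes. With quantile normalization their medians were -0.01 and -0.01. The part of array scaling in the lower canonical levels was not tested beyond these values. Leaving out sh-Control vehicle array 1, whose canonical median was the highest of all arrays, left 33 calls in sh-Control, all lower. Over all genes 22.0% were called lower in that fit. Keeping sh-Control RA array 1 alone gave a canonical median of -0.21 in sh-Control.

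**Figure D3:**
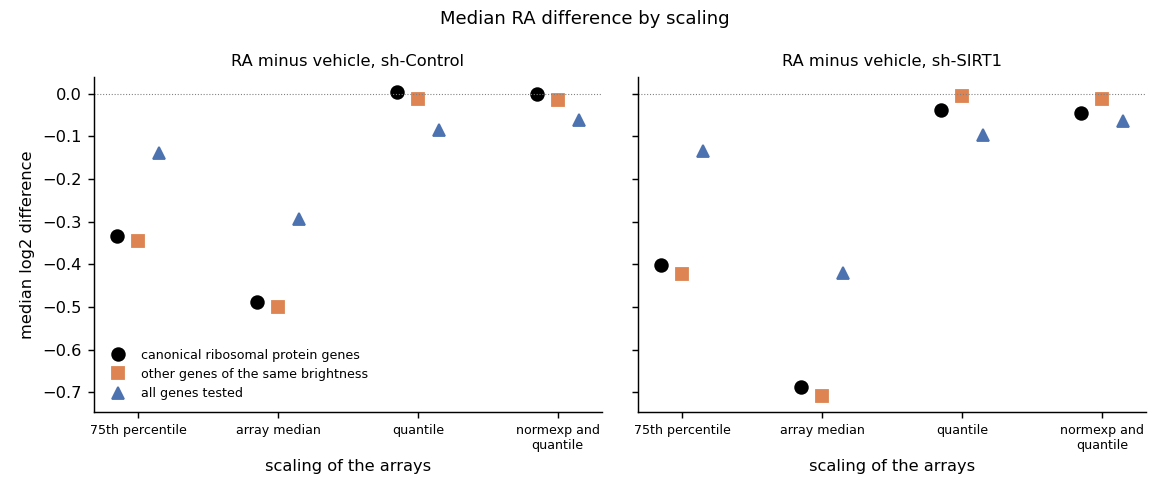
Median log2 difference of RA against vehicle in sh-Control (left) and sh-SIRT1 (right) for the 76 canonical genes, other genes in the same range of levels and all genes tested, under 4 ways of scaling the arrays. The canonical genes lie beside the equally bright genes under every scaling, near -0.33 and -0.40 with the 75th percentile and near 0.00 and -0.04 with quantile normalization.

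Within the family, a few genes were called lower under RA in sh-SIRT1 in every scaling. In sh-SIRT1 the 5 canonical genes with the largest falls were Rpl29 (-0.77 ± 0.08), Rpl18 (-0.70 ± 0.07), Rpl4 (-0.69 ± 0.07), Rpl37 (-0.69 ± 0.07) and Rps9 (-0.68 ± 0.07), with limma adjusted p-values of 1.12e-06 to 4.03e-06. Their calls were kept in all 26 alternatives. With quantile normalization they were -0.38, -0.27, -0.28, -0.27 and -0.29, and Rpl22, Rpl31, Rpl35a and Rpl36 were called lower as well. These were the 9 of the 76 called lower in sh-SIRT1 with that scaling, where 30.9% of all genes were. None of the 5 was called with it in sh-Control. Rpl27a, a large subunit protein at the far end of the family, was called higher with quantile normalization in both lines, by 0.34 ± 0.07 in sh-Control and 0.35 ± 0.07 in sh-SIRT1, and was not called on the 75th percentile scale, with 0.09 and -0.03.

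Rpl29 lay at 5.81, 5.58 and 5.55 in sh-Control vehicle, at 5.90, 5.82 and 5.76 in sh-SIRT1 vehicle, at 5.43, 5.39, 5.35 and 5.27 in sh-Control RA, and between 4.98 and 5.20 (median 5.01) in sh-SIRT1 RA. The sh-SIRT1 RA arrays were the lowest and the sh-SIRT1 vehicle arrays overlapped the highest sh-Control vehicle array. Its 4 probes agreed, with log2 differences of RA against vehicle in sh-SIRT1 of -0.77, -0.73, -0.76 and -0.73. Rpl18 lay at 7.30, 7.19 and 7.17, at 7.41, 7.33 and 7.27, at 6.91, 6.90, 7.01 and 6.95, and between 6.56 and 6.74 (median 6.62) in the same order of groups. Again the sh-SIRT1 RA arrays lay below all others. Rpl4 lay at 5.94, 5.80 and 5.84, at 6.04, 5.92 and 5.89, at 5.57, 5.46, 5.62 and 5.57, and between 5.20 and 5.42 (median 5.24), where the highest sh-SIRT1 RA array was just below the lowest sh-Control RA array.

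Rps9 lay at 6.66, 6.63 and 6.59 in sh-Control vehicle and at 6.77, 6.75 and 6.76 in sh-SIRT1 vehicle. Rpl37 lay at 7.61, 7.47 and 7.50 in sh-Control vehicle, at 7.63, 7.61 and 7.58 in sh-SIRT1 vehicle, at 7.20, 7.03, 7.18 and 7.13 in sh-Control RA, and between 6.85 and 7.01 in sh-SIRT1 RA. The other Rpl37 probe disagreed, with -0.14 for RA in sh-SIRT1 and 0.73 and 0.50 for the hairpin in vehicle and under RA. Over the family, 50 further probes of 37 canonical genes had the sign of the chosen probe in 47 cases for RA in each line. For the hairpin it was 29 cases in vehicle and 41 under RA, and for the difference of RA responses 27.

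**Figure D4:**
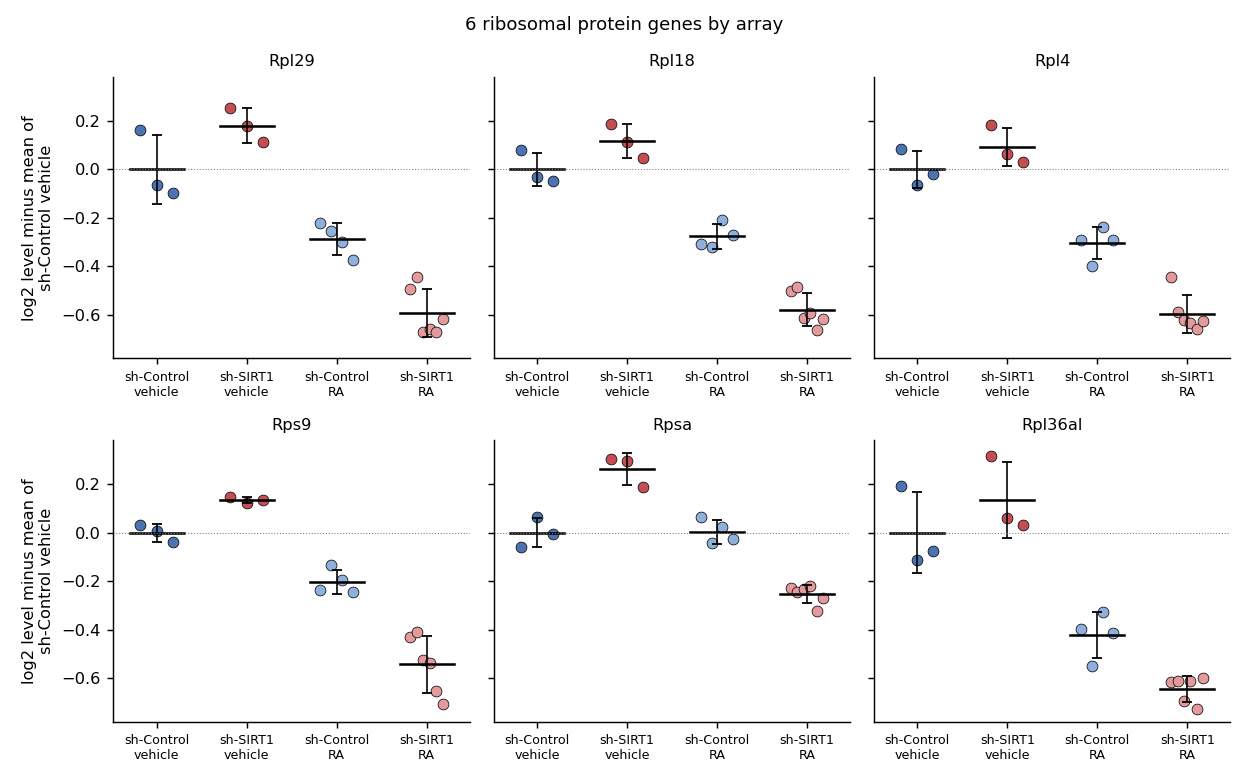
Log2 level of 6 ribosomal protein genes on each array, minus the mean of the 3 sh-Control vehicle arrays of the same gene; points are arrays, lines are group means and bars are SD, on the scale of the 75th percentile. In 5 of the genes the sh-Control RA arrays lie below the vehicle arrays and the sh-SIRT1 RA arrays lie lower still, while sh-Control RA stays near 0 for Rpsa.

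The start regions of 4 of these genes are shown because many ribosomal protein mRNAs begin with a pyrimidine stretch, the TOP element, through which their translation is regulated. The windows run from 15 bases before to 15 bases after the RefSeq start on GRCm38.p6, and capitals mark a match on the sense strand. The runs searched were, in capitals, the letters CTTTCC, then the letters CTTTTC, then the letters CTCTTC, then the letters CTTCTC, then the letters CTTTCT, and last the letters CTTTTT, which can overlap each other.
Rpl18, chr7:45718056-45718085, plus strand: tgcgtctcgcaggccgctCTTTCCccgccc
Rpl4, chr9:64173372-64173401, plus strand: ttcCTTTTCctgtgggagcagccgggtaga
Rpl37, chr15:5116598-5116627, plus strand: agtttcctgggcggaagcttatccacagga
Rps9, chr7:3704026-3704055, plus strand: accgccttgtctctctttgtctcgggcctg
Rpl18 and Rpl4 hold a searched run in this window, and Rpl37 and Rps9 hold none of them. The Rpl4 match lies before the annotated start and the Rpl18 match after it. Rps9 holds another pyrimidine stretch across its start, which the search did not cover. A match or its absence therefore does not show whether an mRNA begins with a TOP element. Of the 56 canonical promoters 17 (30.4%) held a searched run, against 6.68% of all promoters in the table. The arrays measured mRNA level and not translation.

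In sh-Control the 5 canonical genes with the largest falls under RA were Rpl39 (-0.53), Rpl30 (-0.49 ± 0.12), Rpl24 (-0.47 ± 0.09), which bridges the subunits, Rpl28 (-0.44 ± 0.08) and Rps14 (-0.43 ± 0.11), with limma adjusted p-values of 3.64e-04 to 0.00624. Rpl30 lay at 6.79, 6.55 and 6.84 in vehicle and at 6.43, 6.15, 6.20 and 6.18 under RA, and Rpl24 at 6.05, 5.78 and 5.80 and at 5.45, 5.38, 5.40 and 5.40. Neither gene's groups overlapped. With quantile normalization Rpl39 remained called in sh-Control at -0.23 ± 0.07 (adjusted p = 0.0220 in that limma fit), and Rpl24, Rpl28, Rpl30 and Rps14 were not called, with -0.16, -0.11, -0.19 and -0.03. For Rpl39 in sh-SIRT1 it gave -0.15 ± 0.07, which was not called (0.0813).

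The RA response differed between the hairpins for 4 canonical genes, all more negative in sh-SIRT1, where 3.59% of all genes were called, 1.88% in that direction and 1.71% in the other. Rpsa differed by -0.52 ± 0.09 (limma adjusted p = 0.00961), Rpl29 by -0.49 ± 0.12 (0.0420), Rps9 by -0.47 ± 0.11 (0.0319) and Rpl18 by -0.42 ± 0.10 (0.0349). Rpsa lay at 6.12, 6.01, 6.08 and 6.03 in sh-Control RA and between 5.73 and 5.84 in sh-SIRT1 RA. So Rpsa stood at 0.00 ± 0.07 for RA in sh-Control and fell by 0.52 ± 0.06 in sh-SIRT1 on this scale; with quantile normalization sh-Control gave 0.31 ± 0.08, a called difference, and the difference of responses was -0.45 ± 0.10. The other Rpsa probe did not show it, with 0.28 and 0.16 for RA and -0.12 for the difference. The calls for Rpl18, Rpl29 and Rps9 were lost in 17, 18 and 15 of the 26 alternatives and that for Rpsa in 3, and over all alternatives the adjusted p reached 0.176, 0.144, 0.175 and 0.284. With the replicate number as a block within each treatment 3 canonical genes were called, where 9.06% of all genes were. Rpl18 was not among them (limma adjusted p = 0.0517). With the number as a block across all 4 groups 0 were called, where 185 of the 18283 genes were. Limma adjusted p-values there were 0.0631 for Rpsa to 0.119 for Rpl18.

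**Figure D5:**
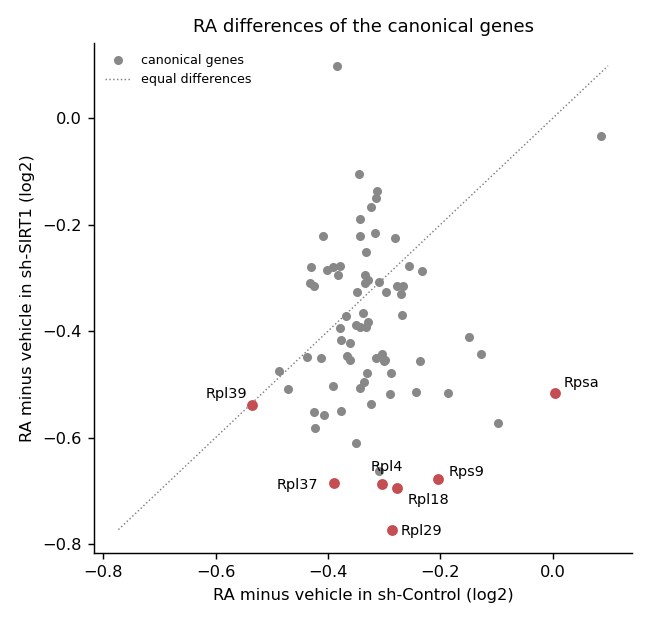
Log2 difference of RA against vehicle in sh-SIRT1 (vertical) against that in sh-Control (horizontal) for the 76 canonical genes, on the scale of the 75th percentile; the dotted line marks equal differences and red points are genes named in the text. Rpsa, Rpl29, Rps9 and Rpl18 lie below the line by 0.42 to 0.52, and Rpl39 lies close to it.

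The stalk, through which the large subunit recruits elongation factors, had 3 members. Rplp0 fell under RA by 0.31 in sh-Control and by 0.45 in sh-SIRT1, and Rplp2 by 0.43 and 0.28. Rplp1 fell by 0.34 in sh-Control and stood at -0.11 in sh-SIRT1, which did not pass (limma adjusted p = 0.416). The probe named Rplp0 is placed by the files on another chromosome than the probes named Arbp. For RA in sh-Control and sh-SIRT1, the Arbp probe of higher signal gave -0.34 (called) and -0.13 (not called), and the other gave -0.31 and -0.36 (both called), so this gene's values are uncertain. Rpl34 gave -0.24 (limma adjusted p = 0.0572) and -0.45 (7.74e-04).

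The other paralogs did not follow Rpl39l. Rpl3l lay at -3.71, -3.48 and -3.36 in sh-Control vehicle, at -2.95, -2.69 and -2.55 in sh-SIRT1 vehicle, at -2.17, -1.94, -2.11 and -2.14 in sh-Control RA, and between -2.50 and -1.72 (median -2.31) in sh-SIRT1 RA. The vehicle groups did not overlap each other or the sh-Control RA group. Rpl3l rose under RA by 1.43 ± 0.17 in sh-Control (limma adjusted p = 1.96e-05), a call kept in all 26 alternatives. Over these the rise in sh-Control was 0.79 to 1.52. In sh-SIRT1 Rpl3l rose by 0.52 ± 0.16 (limma adjusted p = 0.0134), a call lost in 4. In vehicle it was higher in sh-SIRT1 by 0.79 ± 0.19 (limma adjusted p = 0.0176), a call lost when sh-Control vehicle array 2 or sh-SIRT1 vehicle array 2 or 3 was left out, where the adjusted p reached 0.0721. Under RA its hairpin difference was -0.12 ± 0.15, and its RA responses differed by -0.91 ± 0.24 (limma adjusted p = 0.0496), a call lost in 19 of the 26 alternatives, where the adjusted p reached 0.260.

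Rpl36al, the autosomal counterpart of the X-linked Rpl36a, lay at 5.84, 5.53 and 5.57 in sh-Control vehicle, at 5.96, 5.70 and 5.68 in sh-SIRT1 vehicle, at 5.25, 5.09, 5.32 and 5.23 in sh-Control RA, and between 4.92 and 5.05 in sh-SIRT1 RA. Every RA array was below every vehicle array. It fell under RA by 0.42 ± 0.10 in sh-Control and by 0.78 ± 0.09 in sh-SIRT1 (limma adjusted p = 0.00266 and 5.39e-06). With quantile normalization these were -0.12, not called, and -0.37, called.

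Rps27l, a p53-inducible counterpart of Rps27, gave -0.19 ± 0.08 for RA in sh-Control, which did not pass, and fell by 0.50 ± 0.07 in sh-SIRT1 (limma adjusted p = 5.67e-05), which was -0.07 and not called with quantile normalization. Rpl7l1, the counterpart of Rpl7, gave -0.29 ± 0.14 and fell by 0.52 ± 0.13 in sh-SIRT1 (0.00364), which was -0.24 and not called with quantile normalization. Rpl22l1, the counterpart of Rpl22, passed no test. It varied within the RA groups, at 6.53, 6.43, 5.90 and 5.87 in sh-Control and between 5.65 and 6.61 in sh-SIRT1. Rps19bp1 encodes AROS, a protein named as an active regulator of SIRT1. It gave 0.08 ± 0.12 and -0.05 ± 0.09 for the hairpin, which did not pass, and fell under RA by 0.45 ± 0.11 and by 0.58 ± 0.10 (limma adjusted p = 0.00440 and 2.49e-04), which were -0.21 and -0.22 and not called with quantile normalization.

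Lists of genes that make or use the ribosome were set beside the family, chosen with earlier results of these data known. Of 38 ribosome biogenesis genes, 32 fell and 1 rose under RA in sh-Control and 36 fell and 0 rose in sh-SIRT1, with medians of -0.52 and -0.65 beside the canonical -0.33 and -0.40. Over all genes 27.2% and 35.3% were called lower and 19.7% and 23.0% higher. With quantile normalization 20 and 26 were still called lower, where 23.3% and 30.9% of all genes were, with medians of -0.24 and -0.36. Polr1b, a core subunit of RNA polymerase I, fell by 0.91 ± 0.08 in sh-Control, and Nhp2, a protein of the snoRNPs that guide pseudouridylation, by 0.89 ± 0.10 in sh-Control and 1.09 ± 0.09 in sh-SIRT1. Wdr12, which acts in large subunit maturation, fell by 1.01 ± 0.11 in sh-SIRT1. Polr1d, shared by polymerases I and III, rose by 0.28 ± 0.10 in sh-Control, a call lost in 10 of 26 alternatives. Limma adjusted p-values of these 5 were 2.69e-07 to 0.0386.

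Between the hairpins, 2 biogenesis genes were called in vehicle, where 4.41% of all genes were called higher and 4.21% lower: Polr1d was higher in sh-SIRT1 by 0.63 ± 0.11 and Pes1 lower (-0.32 ± 0.09; limma adjusted p = 0.00361 and 0.0437). The Pes1 call was lost in 17 of 26 alternatives, and also with the replicate number as a block within each treatment (limma adjusted p = 0.0573). Under RA, 13 of the 38 were called lower in sh-SIRT1 and 0 higher, led by Rrp9 of the U3 snoRNP (-0.46 ± 0.08) and Taf1d of the polymerase I initiation factor (-0.44 ± 0.08), where 11.7% of all genes were called lower and 8.59% higher. The median was -0.17. With the replicate number as a block across all 4 groups 6 were called lower, where 8.40% of all genes were. The RA responses of Polr1d and Taf1d differed by -0.90 ± 0.14 and -0.57 ± 0.13 (limma adjusted p = 0.00755 and 0.0322), calls lost in 1 and 15 of 26 alternatives, where the adjusted p reached 0.0760 and 0.232.

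Of 75 genes of the mitochondrial ribosome, 52 fell and 1 rose under RA in sh-Control and 70 fell and 0 rose in sh-SIRT1, with medians of -0.38 and -0.57, where 27.2% and 35.3% of all genes were called lower. With quantile normalization 25 and 47 were called lower and 3 and 1 higher, where 23.3% and 30.9% of all genes were called lower. The largest falls were those of Mrps34 (-0.86 and -1.03) and Mrpl16 (-0.81 and -1.06), and Mrps25 was called higher in sh-Control (0.34 ± 0.08), a call lost in 3 of 26 alternatives. Under RA, 22 were called lower and 1 higher in sh-SIRT1, with Mrpl33 at -0.43, Mrpl15 at -0.41 and Mrpl14 at 0.25, where 11.7% of all genes were called lower and 8.59% higher. The Mrpl14 call was lost in 16 of 26 alternatives. With the replicate number as a block across all 4 groups 10 genes were called lower and 1 higher. Over all genes 8.40% were called lower with that block. In vehicle 6 were called higher and 0 lower, with Mrps21 at 0.68 and Mrps36 at 0.65, where 4.41% of all genes were called higher. With the number as a block within each treatment 9 were called higher and 1 lower, where 19.2% of all genes were called. With the block across all 4 groups 4 were called higher, where 1378 of the 18283 genes were called. Mrpl32 and Mrpl21 differed between the RA responses by -0.58 and -0.47, calls lost in 7 and 19 of 26 alternatives, where the adjusted p reached 0.149 and 0.279.

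Of 21 translation factors, 15 fell in sh-Control and 16 in sh-SIRT1 under RA and 0 rose, with medians of -0.35 and -0.42. Over all genes 27.2% and 35.3% were called lower. Of the 112 genes in the canonical range of levels it was 77.7% and 83.9%, but these were not matched to the levels of the translation factors. With quantile normalization 2 and 3 were called lower and 1 and 2 higher, with medians of -0.05 and -0.03. Over all genes 23.3% and 30.9% were called lower with that scaling. Eif4b, a cofactor of the initiation helicase, fell by 0.64 ± 0.14 and Eif4ebp1, a repressor of cap-dependent initiation, by 0.53 ± 0.12 in sh-Control. Eif3k, a subunit of initiation factor eIF3, fell by 0.78 ± 0.07 and Btf3, which meets new chains at the exit tunnel, by 0.62 ± 0.08 in sh-SIRT1. Between the hairpins under RA, Eif3k was called lower in sh-SIRT1 (-0.26 ± 0.07), where 11.7% of all genes were called lower. That call was lost in 6 of 26 alternatives, and also with the replicate number as a block within each treatment (limma adjusted p = 0.0592). In vehicle 0 of the 21 were called by limma, where 8.62% of all genes were, with 2 at an unadjusted p under 0.05. With that block 1 was called lower, where 19.2% of all genes were called.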

How the data were processed

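Arrays were Agilent Whole Mouse Genome slides hybridised with 1 dye, Cy3. The authors deposited the processed intensity of each spot from Feature Extraction 9.5, per the submitters' processing notes, without normalization between arrays. The deposited value table equalled these intensities on all 45018 spots of every array. Control spots were dropped, and 87 to 131 outlier spots per array were set to missing. Each array's 75th percentile was subtracted on the log2 scale, and spots of a probe were averaged. Of 41174 probes, 26375 were well above background throughout 1 group or more and were kept. Linear models over all 16 arrays (limma 3.58.1, R 4.3.3, 12 residual degrees of freedom, two-sided, Benjamini-Hochberg at 0.05 over 18283 genes) had been tested on simulated data. The number of arrays limits the precision.

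Members and lists were chosen with earlier results of these data known. Named genes were Rpl39l, Rpl39, the paralogs, Rps19bp1, up to 5 canonical genes and 2 of each list with the largest called difference per direction and comparison, and the 5 genes most like Rpl39l. Other names, given with a scaling, probe or motif, and the comparison with equally bright genes were chosen after their values were seen. Some genes and a probe sequence that this rule would name are not reported here. Alternatives were quantile normalization without or with normexp (offset 50), the array median, no filter, the mean of probes, slide and replicate blocks, sh-Control RA array 1 alone, and leaving out each array. The labels give replicate numbers without saying what they share. Deviations from the group means correlated at 0.363 to 0.513 in the 3 same-number pairs of the hairpins in vehicle and at 0.431 to 0.541 in the 4 under RA, and at -0.211 to 0.219 between vehicle and RA of a line. The numbers were therefore taken, from the data alone, to pair the hairpins within a treatment and not RA with vehicle. Under RA, however, some pairs of unlike number reached 0.519. There, arrays 1 and 2 of sh-Control and of sh-SIRT1 correlated at 0.316 to 0.541. For sh-Control arrays 3 and 4 with sh-SIRT1 arrays 3 to 6 it was 0.243 to 0.519. Across these sets the correlations were -0.622 to -0.0535. The number may therefore not be the pairing unit under RA, and a block of these sets was not fitted. A block of number within treatment (5 residual degrees of freedom) was added after seeing the data and is counted apart from the 26 alternatives.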

Additional observations from a re-analysis of the deposited data

Results flagged for a closer look

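Within groups, 80 checks for a value far from the rest of its group gave 3, where chance gives about 1 in 20. Rpl39l was at 4.84 on sh-Control RA array 2, with the next array at 4.37 and the lowest at 4.33. On the same array Mrpl16 was at 3.31, with the next at 3.53 and the highest at 3.56. Rpl4 was at 5.42 on sh-SIRT1 RA array 1, with the next at 5.27 and the lowest at 5.20.

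The RA response differed between the hairpins by the interaction test for 5 family members, where 3.59% of all genes were called. The log2 differences (sh-SIRT1 minus sh-Control) were -0.52 for Rpsa, -0.49 for Rpl29, -0.47 for Rps9, -0.42 for Rpl18 and -0.91 for Rpl3l. In this order the calls were lost in 3, 18, 15, 17 and 19 of the 26 alternatives. Among named genes of the other lists they were -0.90 for Polr1d, -0.57 for Taf1d, -0.43 for Mrps25, -0.47 for Mrpl21 and -0.58 for Mrpl32.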

How the results depend on the processing

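For single genes other than Rpl39l, 59 calls were followed, of which 19 were kept in all 26 alternatives and 0 changed sign. These were the calls that the naming rule above picks from the family and lists, and further calls were not followed. The counts of canonical genes called moved as follows. In vehicle (1 called) there were 2 with the array median, 3 with the mean of probes and 0 without the filter or with slide as a fixed block. For the hairpin under RA (9) there were 5 with the array median and 0 with sh-Control RA array 1 alone. For RA in sh-Control (61) there were 5 with normexp and quantile normalization, 3 with quantile normalization and 9 with sh-Control RA array 1 alone. For RA in sh-SIRT1 (64) the 2 quantile settings gave 15 and 11. For the difference of RA responses (4) there were 2 with quantile normalization or the mean of probes, 1 without the filter or with sh-Control RA array 1 alone, and 0 with slide as a fixed block. Leaving out each array gave ranges of 0 to 1, 7 to 20, 33 to 68, 46 to 67 and 1 to 5 in the same order. With quantile normalization 3.37, 10.4, 23.3, 30.9 and 1.54% of all genes were called lower in this order. With the array median these shares were 2.83, 8.92, 37.6, 51.0 and 2.57%.

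For Rpl39l, within slide 1 the hairpin difference was -1.83 in vehicle and -3.28 under RA. Its RA difference was -0.054 within slide 4 in sh-Control, and -1.0 and 1.85 within slides 1 and 2 in sh-SIRT1. Leaving out each array gave -3.33 to -2.18 and -2.87 to -2.60 for the hairpin, 0.09 to 0.32 and -0.32 to 0.84 for RA, and -0.56 to 0.60 for the difference of responses, which was -0.28 with slide as a fixed block. The low ends of -0.32 and -0.56 came without sh-SIRT1 vehicle array 1. The cause of these changes was not tested.

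With the replicate number as a block across all 4 groups 0, 6, 64, 54 and 0 canonical genes were called in the order above. Of all 18283 genes, 1378, 2729, 8487, 10212 and 185 were called there. With the block within each treatment, for which RA against vehicle cannot be fitted, 5, 12 and 3 were called in the hairpin comparisons and the difference of responses. Over all genes 19.2, 28 and 9.06% were called with it. Among the calls followed through the alternatives, that block ended those of Pes1, Eif3k and Rpl18 given with them and no other. Further calls named in the text were not followed with it. Examples are Rpsa and Rps26 between the hairpins under RA and Mrps25 between the RA responses. Slide as a random block had a correlation of 0.00788. Signal over background limits most members little, since all were well above it. Rpl3l had a low level, and the size of its differences varied with the processing. Over the 26 alternatives its RA rise in sh-Control was 0.79 to 1.52. Its hairpin difference in vehicle was 0.48 to 0.93.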
